A study of Homo sapiens with 8 samples.

Results

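The genes described here build or mark the contractile and mural cells of the vessel wall: ACTA2, TAGLN, CNN1, MYH11, MYL9, DES, MYOCD, the RNA CARMN, RGS5 and CSPG4. The members are the entries of the deposited table whose gene symbol matched this list; no value enters that rule, but the list was drawn up with earlier results of these data known. That gave 10 genes of the 30386 in the table, in 11 entries, because the symbol RGS5 appears under 2 identifiers. RNA sequencing measured them in 8 samples made from WTC-TJP1, an established line of human pluripotent cells obtained by reprogramming. There were 4 samples of endothelial cells (iEC) and 4 of retinal endothelial cells (iREC), all at passage 1 and lettered C, D, E and F in each group. No agent, dose or genotype separates the groups in the labels beyond the name of the cell, and all 8 samples come from a single line, so the values describe that line. The labels do not say whether the letters stand for separate differentiations, so p-values then measure only the spread between these samples, which may be technical. Each iEC library held between 14877502 and 16971865 counts, and each iREC library between 13739364 and 15987839.

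Mural cells, which are smooth muscle cells around arteries and veins and pericytes around capillaries, contract through a set of actin, myosin and actin-binding proteins that endothelial cells make little of. In smooth muscle these genes are switched on by serum response factor (SRF), which binds a short DNA element called the CArG box, together with its cofactor myocardin (MYOCD). The retina is known for an unusually dense pericyte coat, and RGS5 and CSPG4, which encodes the proteoglycan NG2, are commonly used to mark that coat.

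Of the 10 genes, 5 rose in iREC, namely CARMN, CNN1, TAGLN, MYL9 and MYH11, with log2 fold changes from 2.78 to 5.13. RGS5 fell by 1.40 on the log2 scale. ACTA2 and CSPG4 were not called, with log2 fold changes of 2.24 and 1.81 and 12.0-fold and 31.9-fold between their lowest and highest iREC samples. DES and MYOCD, with few counts in iEC, did not pass the filter on low counts and were not tested in the main comparison. A call means an adjusted p below 0.05 in edgeR's quasi-likelihood test over 15330 genes; 13.2% of those genes were called higher and 11.7% lower in iREC. The median log2 fold change was 3.06 over the 8 tested genes of the group and 0.02 over all tested genes. The lowest iREC sample lay above the highest iEC sample in 5 of the 8 tested genes, where 29.1% of all tested genes had groups that did not overlap in either direction. DES, outside the test, had groups that did not overlap as well. Without iREC C, both low genes passed the filter and all 10 genes were called. iREC C was the lowest iREC sample for DES, MYOCD and CSPG4, and both low genes entered that fit through iREC. The 10 calls thus depend on which sample was dropped. Over all genes, 3496 of the 15802 tested were called in that fit. Without iREC D, 5 of the 10 genes were called.

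**Figure D1:**
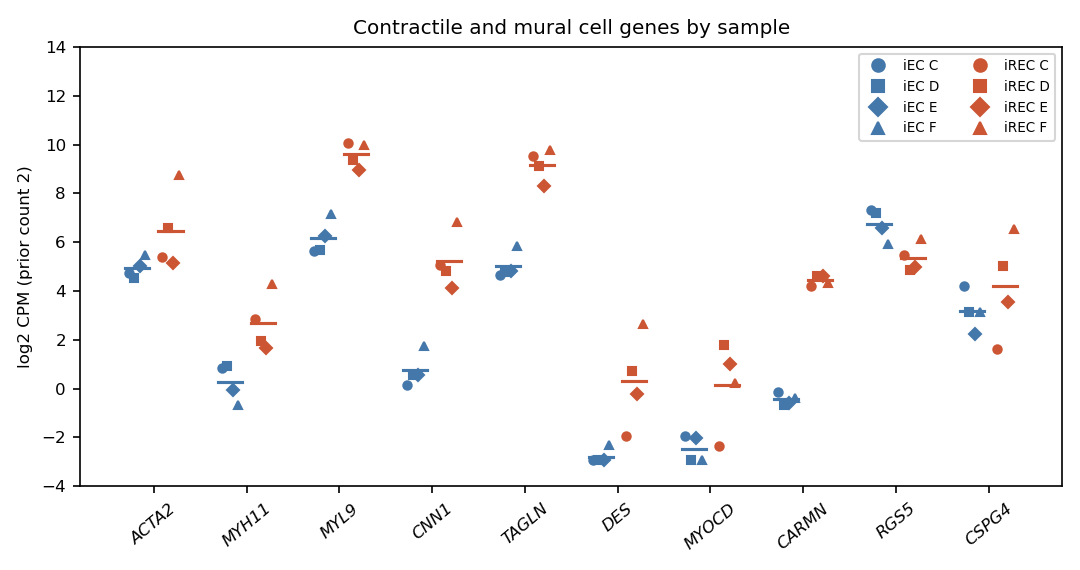
Level of each gene in each sample, as log2 CPM (counts scaled to a common library total, prior count of 2), for 4 iEC samples (blue) and 4 iREC samples (orange); the horizontal bars are group means and the symbols give the replicate letter. MYL9, TAGLN, CNN1, MYH11, DES and CARMN separate the groups, RGS5 lies lower in iREC with overlap between the groups, and the iREC F triangle is the highest iREC point for 7 of the 10 genes.

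Sequence near the start sites is shown because the CArG box is the element through which this gene set is usually described. RefSeq start sites on GRCh38.p14 were matched for 5 of the 10 symbols: ACTA2, CARMN, CNN1, CSPG4 and RGS5. TAGLN, MYL9, MYH11, DES and MYOCD had no start site in the reference used and were not searched. The windows shown are the 250 bases before a start site, read 5′ to 3′ on the strand of the gene. The search and the shares given below used longer windows that also run past the start site. Capitals mark a CArG box, or a match to it with 1 mismatch. The search pattern reads the same on both strands, so each window was searched on both. The inner start site of ACTA2 is shown with CARMN, and ACTG2, which encodes the enteric smooth muscle actin, is shown beside them for its exact matches.
ACTA2, chr10:88952774-88953023, minus strand: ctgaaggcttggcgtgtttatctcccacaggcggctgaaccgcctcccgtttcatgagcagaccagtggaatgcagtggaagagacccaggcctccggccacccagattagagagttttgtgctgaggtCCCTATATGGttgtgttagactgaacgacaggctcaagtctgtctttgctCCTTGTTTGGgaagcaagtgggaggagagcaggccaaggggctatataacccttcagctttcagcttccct
CARMN, chr5:149406595-149406844, plus strand: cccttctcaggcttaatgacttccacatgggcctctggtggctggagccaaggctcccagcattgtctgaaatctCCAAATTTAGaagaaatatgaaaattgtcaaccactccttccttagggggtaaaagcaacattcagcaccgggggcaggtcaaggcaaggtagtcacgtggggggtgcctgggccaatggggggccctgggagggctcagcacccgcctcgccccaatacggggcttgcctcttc
ACTG2, chr2:73892758-73893007, plus strand: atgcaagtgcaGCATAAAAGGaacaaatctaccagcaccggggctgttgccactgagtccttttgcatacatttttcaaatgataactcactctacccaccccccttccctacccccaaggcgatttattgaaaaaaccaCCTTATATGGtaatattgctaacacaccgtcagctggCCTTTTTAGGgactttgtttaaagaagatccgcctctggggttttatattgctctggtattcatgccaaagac

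The ACTA2 window holds 2 matches with 1 mismatch, 121 and 71 bases before the start site. The CARMN window shown holds 1, 175 bases before it, and the longer CARMN window searched holds another just past the start site. ACTG2 holds exact boxes 110 and 73 bases before its start site and a match with 1 mismatch at 239. None of the 7 windows searched for the gene group, which cover only 5 of its 10 genes, holds an exact box. Of these windows, 2 (28.6%) hold a match with 1 mismatch. Over all 35116 windows of the same length in the table, 1.29% hold an exact box and 18.9% hold one when 1 mismatch is allowed. Among 76 windows of the contractile gene list described further on, 11.8% hold an exact box, in 9 genes that include ACTG2 and MYLK. The windows of CNN1, CSPG4 and RGS5 and the outer one of ACTA2 hold no match in these letters. A match is a description of the letters and no evidence of binding.

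The contractile proteins are taken first, beginning with the filaments. ACTA2 (ENSG00000107796, chr10:88935074-88991339, minus strand) encodes smooth muscle alpha-actin, the thin-filament actin of smooth muscle. Its level in the iEC samples C, D, E and F was 26.9, 22.9, 32.3 and 44.7 CPM (counts scaled to a common library total). In the same letters of iREC it was 41.7, 95.4, 35.6 and 426.7 CPM. iREC F stood far above the other 7 samples, while iREC C and E lay below the highest iEC sample, so the groups overlapped. The group means were 31.7 ± 9.50 CPM in iEC and 149.9 ± 186.5 CPM in iREC (SD, n = 4 in each). This gave a log2 fold change of 2.24 ± 0.75 (SE), and edgeR's adjusted p was 0.0559. Without the filter on low counts that adjusted p was 0.0326, DESeq2 gave 0.0359, and the authors' deposited table lists 0.0369. Leaving out iREC F reduced the log2 fold change to 0.86, and leaving out single samples moved the adjusted p between 0.0338 and 0.124. Whether ACTA2 was called thus changed with the tool and with the samples kept.

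MYH11 (ENSG00000133392, chr16:15703172-15857033, minus strand) encodes the smooth muscle myosin heavy chain, the motor of the thick filament and a late marker of the mature contractile state. It was scarce: 1.69, 1.77, 0.83 and 0.50 CPM in iEC, and 7.07, 3.78, 3.05 and 19.3 CPM in iREC. All 4 iREC samples lay above all iEC samples, with iREC F highest. MYH11 rose by 2.78 ± 0.67 on the log2 scale (6.88-fold, edgeR adjusted p = 0.0146). Without iREC F the log2 fold change was 1.94, and the gene was called in each of the 8 fits that left out 1 sample.

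MYL9 (ENSG00000101335, chr20:36541484-36551447, plus strand) encodes the regulatory light chain whose phosphorylation starts smooth muscle contraction. It measured 50.1, 51.6, 75.9 and 144.4 CPM in iEC C, D, E and F. In iREC it measured 1083, 658.6, 499.4 and 1020 CPM. The lowest iREC sample was above the highest iEC sample, and iREC C and F were close together at the top. The means were 80.5 ± 44.2 CPM in iEC and 815.2 ± 281.5 CPM in iREC. MYL9 rose by 3.34 ± 0.41 on the log2 scale, or 10.1-fold (edgeR adjusted p = 0.000493), with 2.17-fold between the highest and lowest iREC samples.

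The actin-binding proteins that regulate or bundle the thin filament follow. CNN1 (ENSG00000130176, chr19:11538717-11550323, plus strand) encodes calponin 1, which inhibits the myosin ATPase in smooth muscle. Its counts in iEC were 15, 21, 23 and 45, or 0.98, 1.33, 1.36 and 3.22 CPM. In iREC the levels were 33.8, 28.5, 17.2 and 115.0 CPM. The groups did not overlap, and iREC F was again highest and iREC E lowest. CNN1 rose by 4.83 ± 0.69 on the log2 scale (28.4-fold, edgeR adjusted p = 0.00112), and by 3.95 when iREC F was left out.

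TAGLN (ENSG00000149591, chr11:117199321-117204782, plus strand) encodes transgelin or SM22-alpha, an actin cross-linking protein that is an early and abundant smooth muscle product. It measured 25.4, 27.2, 27.8 and 58.2 CPM in iEC and 732.5, 556.8, 317.7 and 869.7 CPM in iREC. Every iREC sample exceeded every iEC sample, and iEC F was the highest of its group. The means were 34.6 ± 15.7 and 619.2 ± 238.3 CPM. TAGLN rose by 4.16 ± 0.40 on the log2 scale, or 17.9-fold (edgeR adjusted p = 0.000147). Leaving out single samples kept this value between 3.95 and 4.53.

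DES (ENSG00000175084, chr2:219418377-219426739, plus strand) encodes desmin, the intermediate filament protein of muscle and of many pericytes. Of the iEC samples, only F had any count, a single read. The iREC samples C, D, E and F had 2, 21, 12 and 95 counts, or 0.13, 1.499, 0.73 and 6.22 CPM. The groups did not overlap, although iREC C was under the floor of 3 counts taken here as the limit of detection. The summed counts, scaled for depth, differed 132-fold (95% exact interval 23.4 to 5270, counting error only). With no filter on low counts, edgeR gave a log2 fold change of 6.46 with an adjusted p of 0.00406. In the fit without iEC F, where DES passed the filter, the log2 fold change was 8.07.

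The smooth muscle form also made up a different share of the RNA of its family in the groups. Non-muscle cells use close relatives of these proteins, and shares were computed within each family from the deposited FPKM, which divides by gene length. TAGLN made up 3.42%, 2.95%, 3.84% and 5.37% of transgelin FPKM (TAGLN and TAGLN2) in iEC, and 44.6%, 41.5%, 34.8% and 47.9% in iREC. MYL9 made up 5.93% ± 1.70 of the regulatory light chains MYL9, MYL12A and MYL12B in iEC and 47.1% ± 6.67 in iREC (SD, n = 4). For both proteins the smooth muscle form went from a minor share to a large one in every iREC sample.

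CNN1 made up 0.337% ± 0.154 of the 3 calponins in iEC and 5.87% ± 5.14 in iREC, with 13.5% in iREC F. ACTA2 made up 0.320% ± 0.0718 of 6 actins in iEC and 1.52% ± 1.61 in iREC, where ACTB and ACTG1 gave nearly all the rest. MYH11 stayed a trace of the heavy chains it was set against (MYH9 and MYH10) in both groups, at 0.0225% ± 0.0134 in iEC and 0.0993% ± 0.0593 in iREC. The 5 shares did not overlap between the groups, ACTA2 included, whose CPM did overlap. For ACTA2 the gap was narrow, from 0.404% in iEC F to 0.465% in iREC C. That share also moves with the other actins, and ACTG1 averaged 1491 ± 185.1 FPKM in iEC and 1134 ± 254.9 FPKM in iREC. Shares were not computed for other gene families, so how often they separate the groups is not known. The depth and scaling of a library cancel in such a share.

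**Figure D2:**
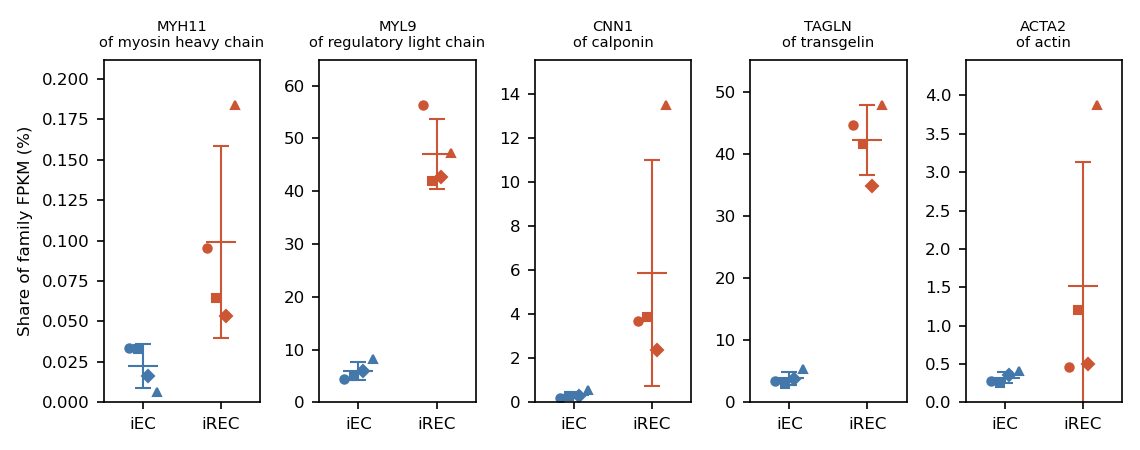
Share of each smooth muscle isoform in the summed FPKM of its family, in percent, by sample (circle C, square D, diamond E, triangle F); the wide marks and whiskers are the mean and SD over 4 samples, each panel has its own scale, and the ACTA2 whisker in iREC runs below 0 and is not drawn there. TAGLN and MYL9 reach 34.8% to 56.4% in iREC, whereas MYH11 stays under 0.2% in all samples.

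Of the non-muscle relatives and the light chain MYL6, MYH10 and CNN3 rose, MYL12A fell and the rest were not called. MYH9, the main non-muscle myosin heavy chain, had a log2 fold change of 0.04 ± 0.24, which turned negative in 4 of the 8 fits that left out a sample, and TAGLN2 had one of -0.04 ± 0.19, which turned positive in 2. MYL6, MYL12B and CNN2 were not called either, with log2 fold changes of 0.21, -0.24 and 0.61. MYL12A fell by 0.67 (edgeR adjusted p = 0.0218), a call lost without iEC E, iREC D or iREC E. CNN3 rose by 0.62 (edgeR adjusted p = 0.0130). MYH10, the non-muscle heavy chain IIB, rose by 1.90 (edgeR adjusted p = 0.00162), from 297.9 ± 85.3 to 1110 ± 387.4 CPM.

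The regulators of this gene set come next. MYOCD (ENSG00000141052, chr17:12665890-12768949, plus strand) encodes the SRF cofactor myocardin. It had 2, 0, 2 and 0 counts in iEC and 1, 46, 31 and 16 in iREC, or 0.065, 3.28, 1.89 and 1.05 CPM in iREC. iREC D, E and F lay above all iEC samples, but iREC C had a single count, fewer than iEC C and E, so the groups overlapped. The summed counts, scaled for depth, differed 23.9-fold (95% exact interval 9.04 to 89.7, counting error only). With no filter on low counts, edgeR put the log2 fold change at 4.43 (adjusted p = 0.0117).

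CARMN (ENSG00000249669, chr5:149406689-149432835, plus strand) is a long non-coding RNA of smooth muscle that is known as a partner of myocardin and as the host transcript of the miR-143 and miR-145 hairpins. It measured 0.78, 0.51, 0.53 and 0.64 CPM in iEC, from 8 to 12 counts a sample. In iREC it measured 18.1, 24.3, 24.6 and 20.04 CPM. The iREC samples lay within 1.36-fold of each other and far above iEC. CARMN rose by 5.13 ± 0.24 on the log2 scale, or 35.0-fold (edgeR adjusted p = 7.09e-06), the largest fold and the smallest error among the 8 tested genes of the group. iREC F, highest for 7 of the 10 genes, was the next to lowest for CARMN.

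The miRNAs of the CARMN locus are shown because their hairpins lie in the span of this gene. Capitals mark the seed, bases 2 to 8, by which a miRNA pairs with its targets; the sequences are RefSeq's on GRCh38.p14, and the 4 seeds all differ.
hsa-miR-143-5p: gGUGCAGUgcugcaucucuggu
hsa-miR-143-3p: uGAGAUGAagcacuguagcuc
hsa-miR-145-5p: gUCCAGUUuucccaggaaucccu
hsa-miR-145-3p: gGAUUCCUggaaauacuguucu
The table gives the gene of the miR-145 hairpin, which lies outside the annotated exons of CARMN, 0 counts in each iEC sample and 2, 8, 7 and 3 counts in iREC C, D, E and F. The summed level in iREC was 6.79-fold above a floor of 3 counts, applied here to the summed iEC counts. An exact interval of the kind given for DES begins lower, at 5.03 (counting error only). These are fragments from poly-A selected RNA at the hairpin and do not measure the mature miRNA; the miR-143 gene was not analysed here.

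SRF itself, the DNA-binding factor, measured 78.2, 68.3, 74.8 and 58.6 CPM in iEC and 148.5, 120.7, 96.6 and 123.8 CPM in iREC, and rose by 0.81 ± 0.15 on the log2 scale (edgeR adjusted p = 0.00484). Of the 16 regulators listed for the SRF and myocardin pathway, 15 were tested, 3 rose, 2 fell and 10 were not called. Over all tested genes 13.2% were called higher and 11.7% lower. The median log2 fold change of the list was 0.09. GATA6, a zinc-finger factor of smooth muscle and endoderm, rose by 4.11 from 1.22 ± 1.62 CPM to 21.2 ± 0.853 CPM (edgeR adjusted p = 0.00418), and by 5.62 without iEC D, the only iEC sample above 1 CPM. TEAD1, which binds beside SRF on contractile promoters, rose by 1.97 (edgeR adjusted p = 0.000339).

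MEF2C, a partner of myocardin in muscle that endothelial cells also express, fell by 1.59 (edgeR adjusted p = 0.000778). PRRX1, a mesenchymal homeobox factor, fell by 2.24 (edgeR adjusted p = 0.0171), a call lost without iREC D. The other SRF cofactors gave no call: MRTFA had a log2 fold change of -0.17 ± 0.15 and MRTFB of 0.51 ± 0.17 (edgeR adjusted p = 0.0531). For MRTFB, upper quartile scaling, a stricter filter, limma-voom and leaving out iEC D each gave an adjusted p under 0.05, of 0.0368 to 0.0496.

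RGS5 and CSPG4 are the pericyte markers of the group, and RGS5 was the only 1 of the 10 genes called lower. RGS5 (ENSG00000143248, chr1:163111121-163321791, minus strand) encodes a GTPase activator that damps G protein signalling and is a classical pericyte marker. It was well expressed in iEC, at 160.6, 146.1, 94.7 and 60.8 CPM, and measured 44.5, 29.2, 31.4 and 70.5 CPM in iREC. iEC C, D and E lay above all iREC samples, while iREC F exceeded iEC F. RGS5 fell by 1.40 ± 0.36 on the log2 scale, a 2.63-fold lower level (edgeR adjusted p = 0.0210), from 115.5 ± 46.2 to 43.9 ± 19.0 CPM. The call was lost without iEC C, iREC D or iREC E, with adjusted p of 0.0531, 0.0628 and 0.0613. The other RGS5 entry (ENSG00000232995), annotated as antisense although it shares the strand and 534 exon bases with the coding gene, held 4 to 25 counts a sample and was not called (log2 fold change -0.65 ± 0.53).

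CSPG4 (ENSG00000173546, chr15:75674322-75712848, minus strand) encodes NG2, a proteoglycan of the mural cell surface that other immature cells also carry. It measured 18.1, 8.60, 4.62 and 8.66 CPM in iEC and 2.94, 32.1, 11.7 and 94.0 CPM in iREC. The iREC samples spanned the iEC range on both sides, with iREC C the lowest and iREC F the highest of all 8 samples. The log2 fold change was 1.81 ± 0.87 (edgeR adjusted p = 0.160). It was 0.64 without iREC F, and 2.20 with an adjusted p of 0.0489 without iREC C.

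Most of the other tested pericyte markers rose, but not all moved the same way. Of 25 listed symbols 16 were tested, of which 11 rose, 3 fell and 2 were not called. Over all tested genes 13.2% were called higher and 11.7% lower. The median log2 fold change was 1.92 for the list and 0.02 over all tested genes. The largest rises were VTN (5.70), EDNRA (3.62), HEYL (3.48), TBX18 (3.18) and NOTCH3 (2.90), a secreted matrix protein, the endothelin A receptor, a Notch target, a mural transcription factor and the Notch receptor of mural cells. The call for EDNRA was lost without iEC C or iEC E and was 2.48 without iREC F. HEYL averaged only 1.53 ± 0.729 CPM in iREC. VTN, EDNRA and HEYL averaged 0.35, 0.64 and 0.13 CPM in iEC and passed the filter on low counts through iREC. Genes that enter in this way can hardly be called lower, so the count of rises and the median partly reflect the filter.

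The falls were ANPEP (-5.05, and -5.78 without iREC E), THY1 (-1.76) and MCAM (-1.04). MCAM, which endothelial cells also express, was the most abundant at 1921 ± 239.7 CPM in iEC and 936.3 ± 306.3 CPM in iREC. The call for THY1 was lost without iEC C, iREC D or iREC E, and that for ANPEP in limma-voom (adjusted p = 0.0509). PDGFRB, the receptor by which pericytes are recruited, measured 2.15, 4.24, 7.10 and 17.6 CPM in iEC and 4.71, 27.1, 10.3 and 127.4 CPM in iREC, and was not called (edgeR adjusted p = 0.108). KCNJ8, ABCC9, HIGD1B and NDUFA4L2, which mark brain pericytes, were under 1 CPM in all 8 samples.

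**Figure D3:**
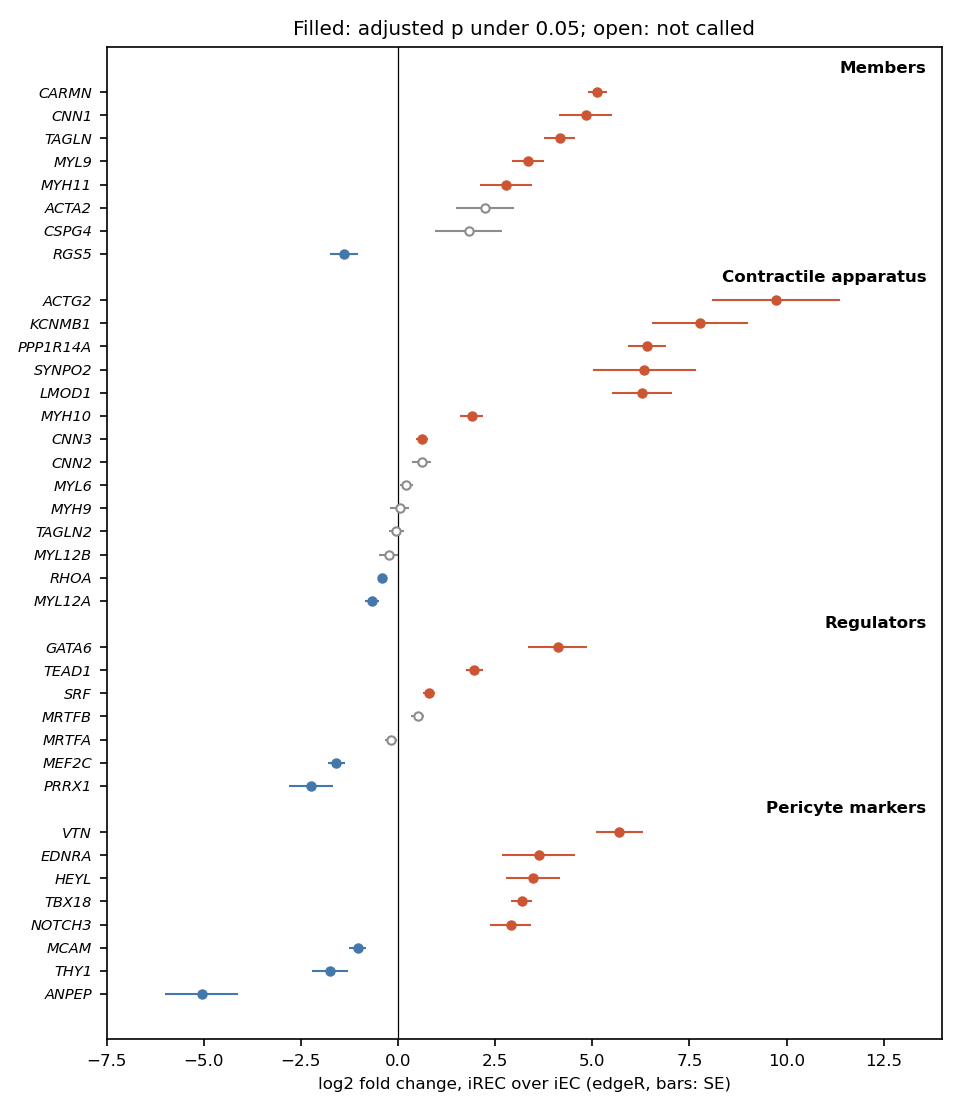
log2 fold change of iREC over iEC with its SE (edgeR) for the 8 tested genes and the named genes of the contractile, regulator and pericyte lists; filled orange points were called higher, filled blue points lower, and open grey points were not called. CARMN, CNN1, TAGLN and MYL9 lie between 3.34 and 5.13. The non-muscle relatives run from -0.67 (MYL12A, called lower) to 1.90 (MYH10, called higher). CNN2, MYH9, TAGLN2, MYL12B and the light chain MYL6 were not called.

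The wider contractile apparatus was described with a list of 36 genes that leaves out the 10 above. Of its 34 tested genes 17 rose, 2 fell and 15 were not called, where 13.2% of all tested genes were called higher and 11.7% lower. The median log2 fold change of the list was 0.65, and 27 of the 36 had a mean of at least 10 CPM in iEC as well. The 5 largest rises were those of ACTG2, KCNMB1, PPP1R14A, SYNPO2 and LMOD1. Of these, ACTG2, KCNMB1 and LMOD1 had at most 5 counts in any iEC sample and passed the filter on low counts through iREC. PPP1R14A, the inhibitor of myosin phosphatase, measured 0.39, 0.063, 0.65 and 1.07 CPM in iEC and 54.9, 46.2, 37.0 and 47.5 CPM in iREC, and like CARMN varied little within iREC. Its log2 fold change was 6.41 ± 0.48 (edgeR adjusted p = 4.74e-05).

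ACTG2 measured 0, 0, 0 and 0.36 CPM in iEC and 4.45, 49.2, 19.7 and 229.7 CPM in iREC. Its 4587 counts in iREC stood against 5 in iEC, a ratio of 934 scaled for depth (95% exact interval 400 to 2880, counting error only), with an edgeR adjusted p of 0.00262 but 0.0922 in limma-voom. Its fitted log2 fold change of 9.73 became 8.09 without iREC F and 13.2 without iEC F, the only iEC sample with a count. LMOD1, which nucleates smooth muscle actin filaments, rose by 6.28 (5.46 without iREC F). SYNPO2 rose by 6.34, or 4.49 without iREC F, and was not called in limma-voom (adjusted p = 0.159). KCNMB1, the smooth muscle subunit of the calcium-activated potassium channel, had no counts in iEC and 108 in iREC. That was 36.7-fold above a floor of 3 counts over the iEC group, with a 95% exact interval that begins at 29.3 (counting error only).

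MYLK, the kinase that phosphorylates MYL9, was not called: it measured 82.3 to 96.1 CPM in iEC and 19.2, 105.8, 49.3 and 373.9 CPM in iREC. It falls outside the naming rule and was chosen after its values were seen. RHOA, which controls contraction through its kinases, fell by 0.40 (edgeR adjusted p = 0.0433), a call that held in only 1 of the 8 fits without a sample.

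Levels were ordered per length with the deposited FPKM. In iREC, MYL9 was the highest of the 10 at 284.4 ± 99.6 FPKM, followed by TAGLN (155.6 ± 60.9), ACTA2 (49.8 ± 62.4), CNN1 (16.6 ± 15.5), RGS5 (6.34 ± 2.79) and CSPG4 (4.19 ± 4.93). CARMN (1.19 ± 0.170), DES (0.861 ± 1.12), MYH11 (0.509 ± 0.467) and MYOCD (0.174 ± 0.150) were lowest. MYL9, TAGLN, ACTA2, CNN1 and RGS5 stood in this order in each of the 4 iREC samples, although the SDs of neighbours overlap. CSPG4 exceeded RGS5 in iREC F only, and the order of the genes below RGS5 changed between samples. In iEC the order was MYL9 (28.6 ± 16.5 FPKM), RGS5 (16.7 ± 6.44), ACTA2 (10.6 ± 3.45) and TAGLN (8.85 ± 4.27), with CSPG4 at 1.19 ± 0.672 and the rest under 1 FPKM. RGS5 exceeded MYL9 in iEC C and D and lay below it in iEC E and F, so their order is not settled. ACTA2 exceeded TAGLN in all 4 iEC samples, though only by 15.42 to 15.24 FPKM in iEC F.

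Most of these genes varied more among the iREC samples than a typical tested gene, which is not particular to them. The SD of log2 CPM over the 4 iREC samples had a median of 1.17 over the 10 genes and 0.28 over all tested genes; in iEC the medians were 0.60 and 0.31. CSPG4 (SD 2.10), DES (1.92), MYOCD (1.79) and ACTA2 (1.64) were the most variable, above 98.5% or more of tested genes. MYH11 (1.17) and CNN1 (1.16) followed, then TAGLN (0.64), RGS5 (0.58) and MYL9 (0.53). CARMN (0.22) was less variable than most tested genes, at their percentile of 36.6. Genes of the wider contractile list covered a similar range in iREC, with SYNPO2 (2.56) and ACTG2 (2.37) high and PPP1R14A (0.24) and MYL6 (0.15) low. DES and MYOCD are held near the floor in iEC, so their spread there says little. Over the 8 tested genes alone, the median SD was 0.90 in iREC and 0.67 in iEC, and it was wider in iREC for 5 of them (62.5%), against 47.3% of all tested genes.

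Sample iREC F carried much of this spread. It was the highest iREC sample for 7 of the 10 genes, and for 6 of the 8 tested (75.0%), against 33.3% of all tested genes, and it was the lowest for none. ACTA2 spanned 12.0-fold from iREC E to F, CNN1 6.70-fold, MYH11 6.33-fold and CSPG4 31.9-fold from iREC C to F. Without iREC F and with the same scaling, the median SD fell to 0.61 over the 10 genes, to 0.59 over the 8 tested and to 0.23 over all tested genes.

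The genes did not share an order within iREC. iREC E was lowest for ACTA2, MYH11, MYL9, CNN1 and TAGLN, the contractile filament genes. iREC C was lowest for DES, MYOCD, CARMN and CSPG4, yet highest for MYL9. MYOCD was highest in iREC D, at 3.28 CPM, and CARMN in iREC E.

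**Figure D4:**
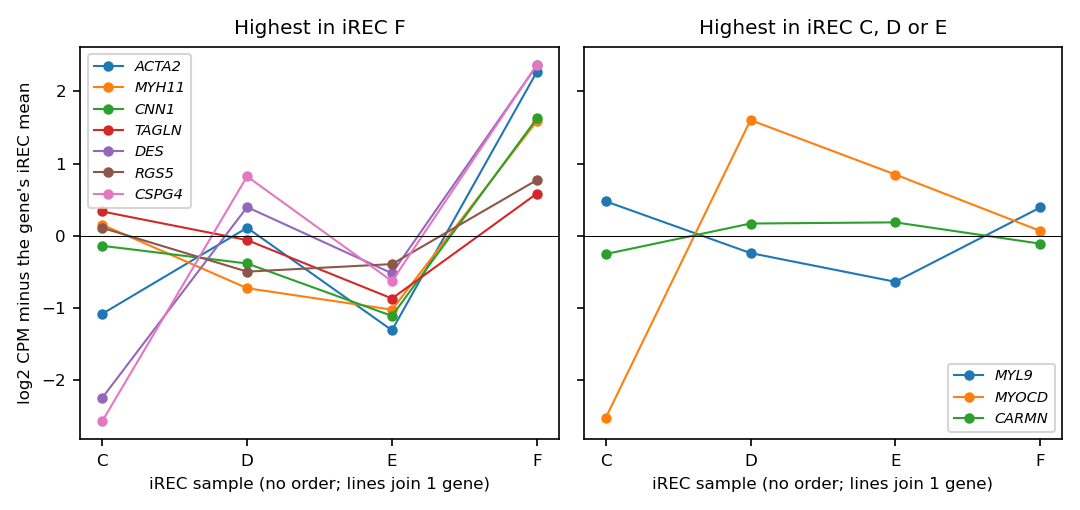
log2 CPM of each gene in iREC C, D, E and F, minus the mean of that gene over the 4 samples; each line joins the values of 1 gene, and the samples have no order. The left panel holds the 7 genes that are highest in iREC F, where ACTA2 and CSPG4 stand more than 2 log2 units above their means, and the right panel the 3 that are not, with CARMN nearly flat.

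Genes with the most similar pattern across the 8 samples were found by the root mean square difference of log2 CPM, each gene centred on its own mean, over 9524 genes. PLXNC1, IRS1 and STK26 were closest to ACTA2 (0.33, 0.35 and 0.35). CDH4, MYL9 and TCIM were closest to TAGLN (0.34, 0.42 and 0.43), with CNN1 at rank 6. ERBB2, CDH4 and TAGLN were closest to MYL9 (0.33, 0.38 and 0.42). SLC4A7, CACHD1 and NETO2 were closest to RGS5 (0.30, 0.31 and 0.31). TAGLN and MYL9 were thus among each other's nearest genes, whereas ACTA2 was nearer to CSPG4 (0.91) than to TAGLN (1.55).

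Markers of other cell types moved along with these genes in some samples. In bulk RNA, fewer cells of a type and less RNA per cell cannot be told apart. The endothelial genes KDR, PECAM1 and CDH5 were abundant in both groups. KDR, at means of 2033 (iEC) and 2627 CPM (iREC), was not called, while PECAM1 fell from 2233 to 754.3 CPM (edgeR adjusted p = 0.000632) and CDH5 from 1351 to 799.2 CPM (edgeR adjusted p = 0.0299). These genes mark endothelium in general and do not check the retinal label. The 13 endothelial markers summed to 7709 to 9836 CPM in iEC. Of the 13, all tested, 4 rose, 5 fell and 4 were not called, where 13.2% of all tested genes were called higher and 11.7% lower. In iREC C, D, E and F the sum was 8252, 8695, 10660 and 4796 CPM. iREC F was thus lowest for the endothelial sum and highest for most contractile genes.

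Fibroblast and mesenchymal markers, 12 in the table with 6 tested and 2 called higher, summed to 133.3 to 384.4 CPM in iEC and to 770.4, 1484, 1019 and 4385 CPM in iREC, with iREC F highest. The collagen gene COL3A1 reached 1641 CPM there, and periostin (POSTN) rose in the group by 5.995 on the log2 scale (edgeR adjusted p = 0.00132). Epithelial markers, 7 in the table with 5 tested and 1 called higher, summed to 391.1 to 1174 CPM in iEC and to 301.6, 1117, 421.8 and 4924 CPM in iREC. KRT8 gave most of that in iREC F, at 3025 CPM.

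Striated and cardiac muscle markers, 17 in the table with 4 tested and 2 called higher, summed to 5.98 to 31.4 CPM in iEC and to 50.1 to 508.1 CPM in iREC. ACTC1 (cardiac actin) and NPPB (a natriuretic peptide) gave most of that, and ACTC1 measured 21.9, 83.6, 17.04 and 262.9 CPM in iREC. The cardiac troponin gene TNNT2 had no counts in iEC or in iREC C, D and E and 0.72 CPM in iREC F, and the cardiac myosin MYH6 had none in iREC. The pluripotency markers, 5 in the table with 2 tested, 1 called higher and 1 called lower, summed to 39.0 to 91.0 CPM in iEC and to 53.3 to 504.8 CPM in iREC. LIN28A (mean of 96.1 CPM over the 8 samples) and DPPA4 (36.0 CPM) were highest, while POU5F1 averaged 0.51 CPM. NANOG was at or under 3 counts in all samples. Neural and retinal markers summed to under 11 CPM in all samples.

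The summed level of the 10 genes was 284.6, 260.0, 238.1 and 321.2 CPM in iEC and 1964, 1433, 943.2 and 2643 CPM in iREC. iREC F was highest for the fibroblast, epithelial, striated and pluripotency sums and for the sum of the 10 genes. Within iEC, sample F was likewise highest for the fibroblast, epithelial and striated sums and for the sum of the 10 genes, but lowest for the pluripotency sum. iREC C had the lowest fibroblast and striated sums of iREC, both above all iEC samples, and an epithelial sum below all iEC samples, beside 1083 CPM of MYL9 and 732.5 CPM of TAGLN. The calls for CARMN, CNN1, TAGLN, MYL9 and MYH11 were kept in the fit without iREC F. The part of other cell types in the levels of these genes was not tested.

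**Figure D5:**
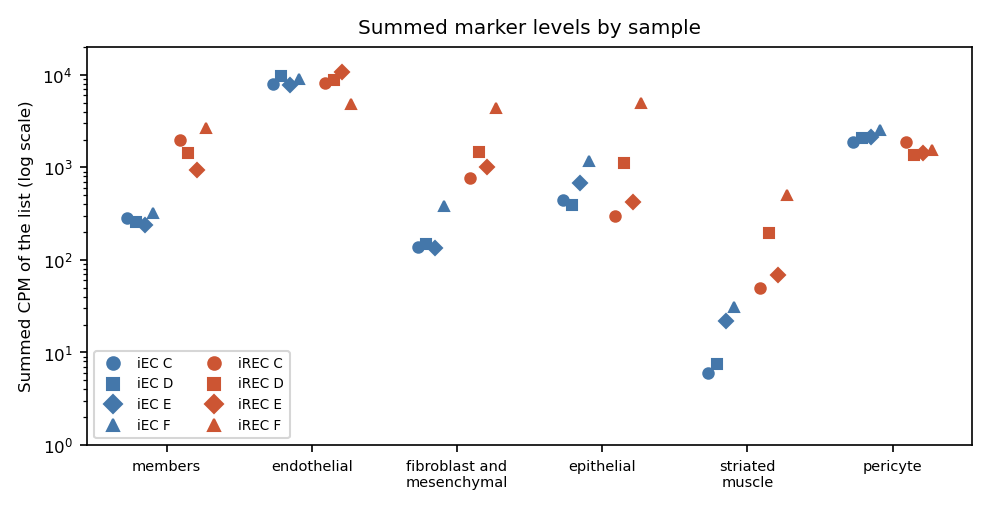
Summed CPM, on a log scale, of the 10 genes and of the marker lists for 5 cell classes in each sample of iEC (blue) and iREC (orange). The fibroblast, epithelial and striated sums are highest in iREC F, where the endothelial sum is lowest. The sum of the 10 genes is above iEC in all 4 iREC samples. The pericyte sum runs from 1882 to 2539 CPM in iEC and from 1358 to 1861 CPM in iREC. MCAM gives most of it, at means of 1921 and 936.3 CPM, while 11 of the 16 tested pericyte markers were called higher.

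Annotated exons of several of the genes overlap a gene on the opposite strand. ACTA2 shares 380 exon bases with FAS, which fell by 1.14 from 54.4 ± 6.71 to 24.7 ± 4.81 CPM, and 516 with ACTA2-AS1, which stayed at 1.90 CPM or less in all samples. TAGLN shares 446 bases with PCSK7 and MYH11 shares 765 with NDE1, at 63.4 ± 8.09 and 38.8 ± 10.95 CPM in iEC. Neither PCSK7 nor NDE1 was called. The libraries keep strand information, but whether the counting used it is not given in the sources used here, so reads from the shared bases may not be told apart. MYH11 itself, at 0.50 to 19.3 CPM, lay below NDE1 in level.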

How the data were processed

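Poly-A selected RNA from 4 iEC and 4 iREC samples was sequenced as dUTP libraries, per the labels' protocols. Per the submitters' processing notes, fastp, HISAT2 2.0.5 and the build hg38 were used; the counting program and its strand setting are not given in the sources used here. The authors deposited 1 table of 30386 genes with raw counts, a normalized signal (not used for tests), FPKM, and a log2 fold change with p-values, per the file headers. All 30386 gene coordinates matched GENCODE release 29 (GRCh38).

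The deposited counts were filtered with filterByExpr (15330 genes left), scaled by TMM and compared with edgeR 4.0.16 (quasi-likelihood F-test, group only, Benjamini-Hochberg over all tested genes) in R 4.3.3. The SE was derived from the coefficient and the F statistic. The CPM uses the TMM-scaled totals of the kept genes, and log2 CPM a prior count of 2. The floor of 3 counts corresponded to 0.177 to 0.218 CPM. Intervals and floors cover counting error only. The tests were tried on simulated data. Alternatives were other scalings, no filter and a stricter one, DESeq2 1.42.0, limma-voom (limma 3.58.1), the replicate letter as a block, and each sample left out.

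The members and lists were chosen with earlier results of these data known. Named genes were all 10 members and up to 5 called genes per list and direction that reached a group mean of 1 CPM. SRF, MRTFA, MRTFB, MYL6 and the non-muscle relatives were also named, with up to 3 of the most abundant markers of each cell type. Other defining markers are named only for being at or near 0. Listed symbols without an entry (COX4I2, TNNI3, MYH7, MYOD1, MYF5, DPT, PRDM14) were not analysed here.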

Additional observations from a re-analysis of the deposited data

Results flagged for a closer look

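TAGLN in iEC F was 5.87 log2 CPM, while the other iEC samples lay between 4.67 and 4.80, a gap of 0.888 of the range of the group. DES in iEC F was -2.31 log2 CPM against -2.94 in the other iEC samples, which is 1 count against none. These were the samples that lay far from the others of their group among the 20 groups examined (10 genes in iEC and in iREC), where chance alone would give about 1. No iREC sample of any of the 10 genes met the same limit.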

How the results depend on the processing

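Of the 10 genes 6 were called in the main comparison, and 9 without the filter and in DESeq2. Over fits without 1 sample the count ran from 5 to 10. The 10 came without iREC C, the lowest iREC sample for DES, MYOCD and CSPG4. The median SD of log2 CPM in iREC was 1.17, and ran from 0.616 (without iREC F) to 1.35 when single samples were left out. The other counts of calls stayed within 1.5 times. With the replicate letter as a block, 5 of the 10 genes were called and RGS5 was lost (adjusted p = 0.0536 in edgeR); over all genes calls went from 3829 to 3334, and RHOA was lost among the named genes (adjusted p = 0.0778). Samples of the same letter had correlations of 0.168, -0.0794, 0.0291 and 0.25 in their deviations from the group means (C, D, E, F), so the letters were not taken as pairs. Directions that turned belonged to genes near 0 that were not called: without single samples TAGLN2 ran from -0.127 to 0.0809 and MYH9 from -0.183 to 0.229. Of single named genes under the alternatives, 562 comparisons kept direction and side of the threshold, 25 lost a call, 9 gained a call and 6 turned; the cause was not tested. The median log2 fold change of all tested genes moved by over 0.1 only where low genes were kept, to 0.149 with no filter and 0.161 in DESeq2. Depth limits DES, MYOCD and MYH11, whose counts were fewest.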
